A study of Homo sapiens with 3 samples.

Results

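The sterol steps from lanosterol to cholesterol were followed through 9 genes: LSS, CYP51A1, TM7SF2, MSMO1, NSDHL, HSD17B7, EBP, SC5D and DHCR7. They were chosen by name, in the order of the pathway, and measured by the probe sets annotated to exactly 1 gene, a probe set being the group of short probes that reads 1 stretch of a transcript. Of the 9 genes, 8 had such probe sets, 16 in all, and CYP51A1 had none. After a filter on signal, 14 probe sets of these 8 genes remained, among 23192 probe sets of 12321 genes measured in the series.

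Cholesterol is made from acetyl-CoA by way of mevalonate and squalene. LSS folds squalene epoxide into lanosterol, the first sterol, and the enzymes after it trim and rearrange that molecule. CYP51A1 removes the methyl group at carbon 14, TM7SF2 reduces the double bond this leaves, and MSMO1, NSDHL and HSD17B7 together strip the methyl groups at carbon 4. EBP then moves a ring double bond to carbon 7, SC5D adds another at carbon 5, and DHCR7 reduces the bond at carbon 7. Transcription of these genes is known to be driven by SREBP-2, a factor held in the endoplasmic reticulum while membranes are rich in sterol, which commonly acts together with the CCAAT-binding factor NF-Y and with Sp1.

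Expression was measured in the colorectal cancer line HCT-116 on 3 arrays, 1 per condition. The first array was of SCD1-WT cells given DMSO for 24 h and was the control, and the second of SCD1-WT cells given an SCD1 inhibitor for 24 h. The labels do not name the compound, which is T-3764518 at 100 nM in the methods. The third was of SCD1-KO (knockout) cells, edited with CRISPR-Cas9 and picked as clones by PCR. The methods give these cells DMSO for 24 h, whereas the labels state neither vehicle nor time for this array, nor which clone or how many it holds. SCD1 is the desaturase that places a double bond in stearoyl-CoA, and the study asked how the cells respond when it is inhibited or lost.

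With 1 array per condition no difference has a replicate check, no test was possible, and no p-value is given. The values are MAS5 signals, a linear brightness per probe set, with the same trimmed mean on every array. A gene's log2 ratio is the median over its kept probe sets, those whose log2 signal, averaged over the 3 arrays, reached the array-wide median, equal to a signal of 56.6. The error given with a ratio is the SD among probe sets that share a gene and are of similar brightness. It covers differences between probe sets, but not between cultures. A gene is called higher or lower where its ratio was at least 2-fold. A change in RNA per cell cannot be told apart from a change in the mix of cells in the dish.

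The 4 promoters printed here belong to a pair of genes that were higher in both states, LSS and DHCR7, and a pair that was higher under T-3764518 and near the control level in knockout cells, MSMO1 and SC5D. They are the 250 bases before a gene start in RefSeq (GRCh38.p14), 5′ to 3′ along the gene, with each CCAAT or its complement ATTGG in capitals. The LSS sequence is chr21:46228775-46229024 on the minus strand, that of DHCR7 chr11:71448394-71448643 on the minus strand, that of MSMO1 chr4:165327419-165327668 on the plus strand and that of SC5D chr11:121292521-121292770 on the plus strand. DHCR7 and SC5D each have a further start in the table, which is not printed.
LSS: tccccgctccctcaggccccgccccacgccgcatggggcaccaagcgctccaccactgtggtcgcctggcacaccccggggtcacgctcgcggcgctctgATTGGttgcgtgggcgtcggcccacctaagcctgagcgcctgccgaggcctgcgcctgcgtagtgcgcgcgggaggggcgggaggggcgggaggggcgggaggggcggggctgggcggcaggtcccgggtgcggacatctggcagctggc
DHCR7: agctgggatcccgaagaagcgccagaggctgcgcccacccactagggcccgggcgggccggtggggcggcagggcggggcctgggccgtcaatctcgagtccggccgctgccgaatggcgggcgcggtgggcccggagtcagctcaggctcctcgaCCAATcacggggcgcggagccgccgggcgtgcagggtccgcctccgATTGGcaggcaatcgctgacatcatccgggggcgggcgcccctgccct
MSMO1: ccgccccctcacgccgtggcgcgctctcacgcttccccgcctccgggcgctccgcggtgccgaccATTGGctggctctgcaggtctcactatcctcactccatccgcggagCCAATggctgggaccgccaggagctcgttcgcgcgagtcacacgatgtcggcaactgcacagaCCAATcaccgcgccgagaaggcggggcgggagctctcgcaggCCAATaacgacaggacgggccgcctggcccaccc
SC5D: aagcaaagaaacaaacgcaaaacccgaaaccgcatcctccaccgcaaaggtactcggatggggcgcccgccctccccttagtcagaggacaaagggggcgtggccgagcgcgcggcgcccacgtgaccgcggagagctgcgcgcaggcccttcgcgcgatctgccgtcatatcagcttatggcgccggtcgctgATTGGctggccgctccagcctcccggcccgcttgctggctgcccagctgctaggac

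Over all 9 genes, which have 11 starts in the table, CCAAT on either strand lay in the window of 8 genes, the exception being CYP51A1. Counted by promoter, 9 of these 11 held it, and 32.0% of all 35116 promoters of this length. MSMO1 had 4 matches, beginning 185, 139, 76 and 34 bases before the start, and NSDHL had 5, among which those at 113 and 110 overlap on opposite strands. EBP had 3, DHCR7 had 2 at its printed start and none at the other, and LSS, TM7SF2, HSD17B7 and SC5D had 1 at each start. The windows of the SC5D starts overlap, and its match is the same site in both. The Sp1 box GGGCGG was found in 8 of the 9 genes, all but NSDHL. Counted by promoter, it was in 9 of the 11 and in 42.6% of all promoters. LSS alone had 6 copies, 5 of them between 75 and 38 bases before the start. The E-box CACGTG was found for SC5D only, at a site 131 bases before the printed start that both its windows hold. It was thus in 2 of the 11 promoters, and in 6.34% of all promoters. The core of the sterol regulatory element, TCACNCCAC, was found in none of the 9 genes and in 0.883% of all promoters, which says only that these letters are not in these windows. CCAAT was thus found both in genes called in both states and in genes called under T-3764518 alone, as well as in TM7SF2, which was called in neither.

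**Figure D1:**
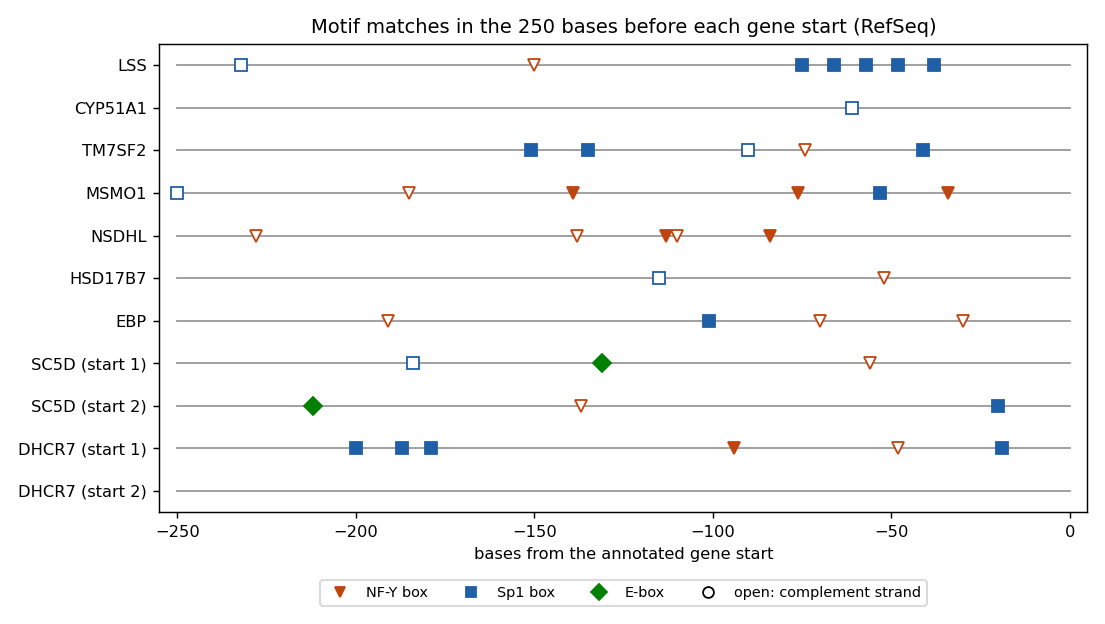
Matches to the NF-Y box, the Sp1 box and the E-box in the 250 bases before each RefSeq gene start of the 9 genes (horizontal axis, bases from the start; a row for each start, filled marks on the gene's strand and open marks on its complement). The NF-Y box is marked for 8 genes, and the row of CYP51A1 and 1 of the DHCR7 rows hold none.

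SCD, the targeted gene, had 4 probe sets with signals of 834 to 23841 under DMSO, 6908 to 39350 under T-3764518 and 1965 to 24119 in knockout cells. These probe sets could not be placed relative to the edited stretch, so they do not check the knockout. The epithelial keratins KRT8, KRT18 and KRT19 were bright on all 3 arrays, while the intestinal factor CDX1 stayed below 56.6 on each. EPCAM, an epithelial adhesion molecule, had signals of 16859 with DMSO, 17224 under T-3764518 and 6840 in knockout cells, and the brightest probe set of CDH1, which encodes E-cadherin, had 5038, 6686 and 1285. KRT20, an intestinal keratin, had 99.9, 113.0 and 369.7. The intestinal factor CDX2 had 59.6, 60.9 and 115.1, and LGALS4, an intestinal galectin, 79.3, 88.0 and 12.2. Summed over the 10 epithelial markers listed, the signals were 83210, 91826 and 78718, and 9, 9 and 8 of the markers were above 56.6. The knockout array thus stood apart from both others in several epithelial and intestinal genes, EPCAM, CDH1 and LGALS4 being lower and KRT20 and CDX2 higher. CDX2 and LGALS4 were dim on all 3 arrays, and the CDX2 log2 ratio of knockout cells to DMSO, 0.95 ± 0.60, was under 2-fold. VIL1, another of the listed markers, was also dim and had 73.9, 68.5 and 85.8. The part of these genes in the SCD1-KO ratios of the sterol steps was not tested. Of 9 markers of blood cells, endothelium, fibroblasts and liver, 4, 3 and 4 were above 56.6 on the 3 arrays. Their summed signals were 1680, 1915 and 1477, and none was at 0. The fibroblast markers COL1A1 and DCN had 1128, 1409 and 1090, and 81.9, 46.1 and 78.3. PECAM1, of endothelium, had 249.2, 252.6 and 142.1. The blood cell markers CD3E and PTPRC had 106.1, 92.1 and 58.7, and 24.5, 17.3 and 20.7. Among 8 housekeeping genes no ratio to DMSO reached 2-fold. Their log2 ratios ran from -0.45 to 0.17 under T-3764518 and from -0.30 to 0.43 in knockout cells. Of all genes, 2.18% were called higher and 3.30% lower under T-3764518, and 3.12% and 3.93% in knockout cells.

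Under T-3764518, 5 of the 8 measured genes were called higher than with DMSO and none lower, where 2.18% of all 12321 genes were called higher and 3.30% lower. They were DHCR7, MSMO1, HSD17B7, SC5D and LSS. The median log2 ratio of the 8 genes was 1.15, beside -0.087 over all genes. In knockout cells 2 of the 8, DHCR7 and LSS, were called higher and none lower, where 3.12% of all genes were called higher and 3.93% lower. The median there was 0.77, beside -0.011 over all genes, and all 8 ratios were above 0. The same 2 genes were thus higher in both states, as were 1.09% of all genes. Both comparisons use the same DMSO array, so a high or low signal on it would move both ratios together.

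**Figure D2:**
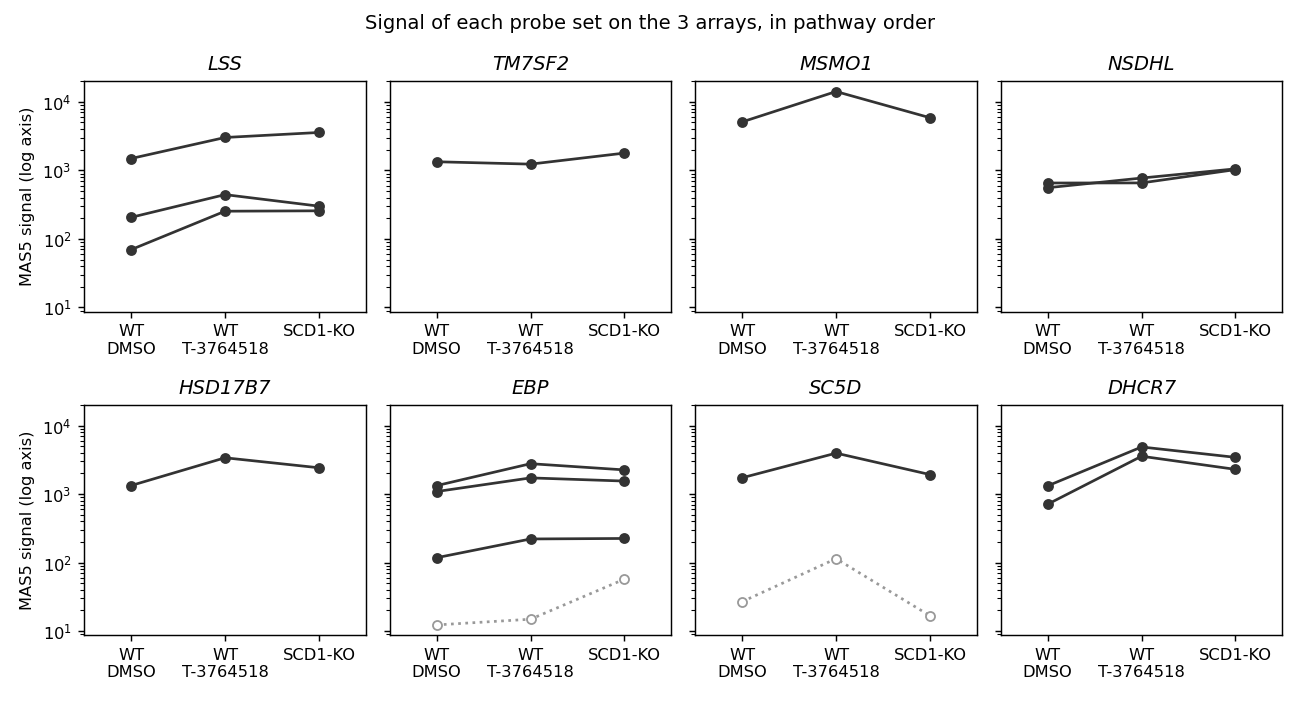
MAS5 signal (log axis) of each probe set of the 8 measured genes on the 3 arrays, in pathway order. Each line is a probe set, with kept ones solid and the 2 below the filter dotted. DHCR7 lies above its DMSO signal on both other arrays, whereas MSMO1 and SC5D return nearly to it in knockout cells.

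LSS, the lanosterol synthase, was measured by 3 probe sets. The brightest had signals of 1490 with DMSO, 3020 under T-3764518 and 3574 in knockout cells. The second had 206.3, 442.7 and 300.5, and the dimmest 69.7, 253.5 and 256.9. Every LSS probe set was thus lowest with DMSO, but they did not place the other arrays in the same order. The gene's log2 ratio was 1.10 ± 0.34 under T-3764518 (2.15-fold) and 1.26 ± 0.34 in knockout cells (2.40-fold). Under T-3764518 it lay just inside the call, with the brightest probe set at 1.02. In knockout cells the probe sets spread from 0.54 to 1.88. Without the dimmest, whose suffix _s_at marks probes that can match several transcripts, the SCD1-KO ratio was 0.90 and no longer called.

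CYP51A1, the lanosterol 14α-demethylase, has no value here. The array has 2 probe sets whose annotation names it, and both also carry the symbol LRRD1. That gene lies on the same chromosome, and its span in RefSeq does not overlap that of CYP51A1. The 2 probe sets had signals of 2796 and 2420 with DMSO, 8417 and 8738 under T-3764518, and 6417 and 5257 in knockout cells. These are 3.01-fold and 3.61-fold under T-3764518 and 2.29-fold and 2.17-fold in knockout cells, and the transcript they read is not settled by the annotation. They enter no count or median of the sterol steps.

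TM7SF2, a sterol C14-reductase, had the lowest T-3764518 ratio of the measured genes, but its gap to NSDHL was within the SD between probe sets. Its probe set had signals of 1336 with DMSO, 1233 under T-3764518 and 1787 in knockout cells. The log2 ratio was -0.12 ± 0.29 under T-3764518, a sign that turned to 0.16 when the arrays were scaled to the same median, and 0.42 ± 0.30 in knockout cells. Neither is 2-fold. Under T-3764518, 53.0% of all genes had a ratio at least as high.

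MSMO1, the methylsterol monooxygenase that starts removal of the carbon-4 methyl groups, had signals of 5102 with DMSO, 14159 under T-3764518 and 5869 in knockout cells. Its log2 ratio was 1.47 ± 0.26 under T-3764518 (2.78-fold), which only 105 genes, itself among them, reached or passed. In knockout cells it was 0.20 ± 0.25, inside the SD between probe sets. MSMO1 has 1 probe set, so this contrast has no second reading on the arrays.

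NSDHL, the dehydrogenase that acts after MSMO1, showed the opposite order. Its probe sets had signals of 558.2 and 654.1 with DMSO, 772.7 and 656.0 under T-3764518, and 1053 and 1025 in knockout cells. Both were thus highest in knockout cells, and 1 of them hardly differed between DMSO and T-3764518. The log2 ratio was 0.24 ± 0.29 under T-3764518 and 0.78 ± 0.30 in knockout cells (1.72-fold), so the gene was called in neither state.

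HSD17B7, the 3-ketosteroid reductase that completes each removal, had signals of 1333 with DMSO, 3388 under T-3764518 and 2421 in knockout cells. The log2 ratio was 1.35 ± 0.26 under T-3764518 (2.54-fold) and 0.86 ± 0.25 in knockout cells (1.82-fold). Its probe set has the suffix _x_at, which marks probes that can bind other transcripts, and the related pseudogene HSD17B7P2 had signals of 49.3, 43.4 and 60.0 on a probe set of its own. The value of HSD17B7 is therefore uncertain to the extent that such transcripts share its probes.

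EBP, the sterol isomerase, was measured by 3 kept probe sets, with DMSO signals of 1329, 1089 and 117.8. Under T-3764518 they were 2777, 1723 and 221.2, and in knockout cells 2253, 1548 and 224.9. Every kept EBP probe set was higher on both arrays than with DMSO, but the gene's log2 ratios of 0.91 ± 0.29 under T-3764518 (1.88-fold) and 0.76 ± 0.30 in knockout cells (1.70-fold) stayed under the threshold. Under T-3764518 EBP lay just outside the call, and it passed it under 4 of the 10 other ways of computing gene values. The remaining EBP probe set, at 12.3, 14.9 and 57.3, was below the filter.

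SC5D, the desaturase that acts before DHCR7, had signals of 1730 with DMSO, 3960 under T-3764518 and 1927 in knockout cells. Like MSMO1, it was high on the T-3764518 array and near its DMSO level in knockout cells. Its log2 ratio was 1.19 ± 0.26 under T-3764518 (2.29-fold) and 0.16 ± 0.25 in knockout cells. A second probe set, dropped for its low signal, had 26.9, 114.1 and 16.8. With it included, the SCD1-KO ratio turned to -0.26.

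DHCR7, the 7-dehydrocholesterol reductase that makes cholesterol, had the highest ratio of the 8 genes in each state. Its probe sets had signals of 1319 and 711.9 with DMSO, 4871 and 3568 under T-3764518, and 3436 and 2294 in knockout cells. Both were lowest with DMSO and highest under T-3764518. The log2 ratio was 2.10 ± 0.26 under T-3764518 (4.30-fold), reached or passed by 28 of 12321 genes including DHCR7 itself. In knockout cells it was 1.53 ± 0.25 (2.90-fold), reached or passed by 120 genes. It was the only 1 of the 8 genes whose probe sets were all past 2-fold in knockout cells.

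**Figure D3:**
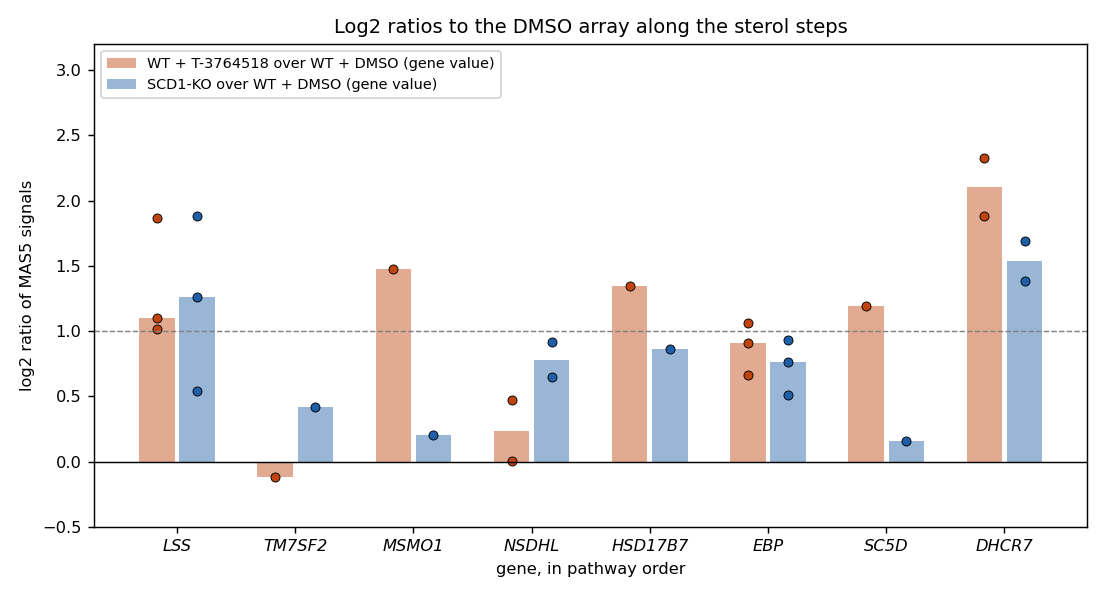
Log2 ratio to the DMSO array of each measured gene along the pathway (bars, gene values), under T-3764518 and in knockout cells, and of each kept probe set (points). The dashed line is 2-fold. DHCR7 stands highest in both, at 2.10 and 1.53, and MSMO1 and SC5D show a wide gap between the bars.

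Ordered by the T-3764518 ratio, DHCR7 came first and was followed by MSMO1, HSD17B7, SC5D, LSS, EBP, NSDHL and TM7SF2. The gap from DHCR7 to MSMO1, 0.63, and that from EBP to NSDHL, 0.67, were wider than the SD expected between probe sets, 0.36 and 0.42. The other neighbours in this order did not differ beyond that SD. In knockout cells the order was DHCR7, LSS, HSD17B7, NSDHL, EBP, TM7SF2, MSMO1 and SC5D, and no pair of neighbours differed beyond it. The ratios thus did not follow the order of the reactions. The first and the last enzyme, LSS and DHCR7, were called in both states. The measured genes between them ranged from -0.12 to 1.47 under T-3764518 and from 0.16 to 0.86 in knockout cells. CYP51A1, a step between them, has no value. The probe sets it shares with LRRD1 lay above these ranges, at 1.59 and 1.85 under T-3764518 and 1.20 and 1.12 in knockout cells.

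**Figure D4:**
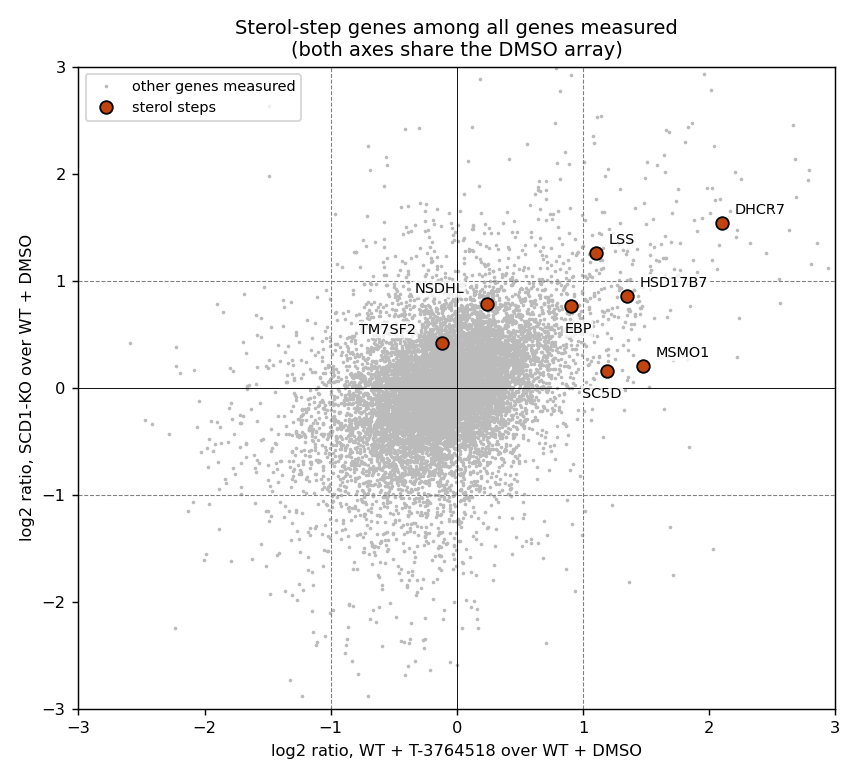
Log2 ratios to the DMSO array of all genes measured (grey, a point for each gene), with that for T-3764518 on the horizontal and that for SCD1-KO on the vertical axis, and the 8 sterol-step genes (red). Dashed lines are 2-fold, both axes share the DMSO array, and 30 genes outside the range of -3 to 3 are not drawn. All 8 genes lie above 0 on the vertical axis, and DHCR7 and LSS are past 2-fold on both.

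The T-3764518 and SCD1-KO arrays can be set against each other without the DMSO array. In this direct ratio of SCD1-KO to T-3764518, none of the 8 genes was called higher and 2 were called lower, where 4.52% of all genes were called higher and 3.10% lower. MSMO1 was 2.41-fold lower in knockout cells (log2 ratio -1.27 ± 0.26) and SC5D 2.06-fold lower (-1.04 ± 0.26). Each was past 2-fold in this ratio under all the other ways of computing gene values that gave it a value. Both genes have 1 kept probe set, which several of those ways leave unchanged. Among those ways the weakest SC5D ratio was -1.01, just inside the call. DHCR7 was at -0.57 ± 0.26, HSD17B7 at -0.49 ± 0.26 and EBP at -0.15 ± 0.31. LSS stood at 0.019 ± 0.35. NSDHL and TM7SF2 lay on the other side, at 0.55 ± 0.31 and 0.54 ± 0.31, higher in knockout cells but under 2-fold. The median over the 8 genes was -0.32, beside 0.057 over all genes.

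**Figure D5:**
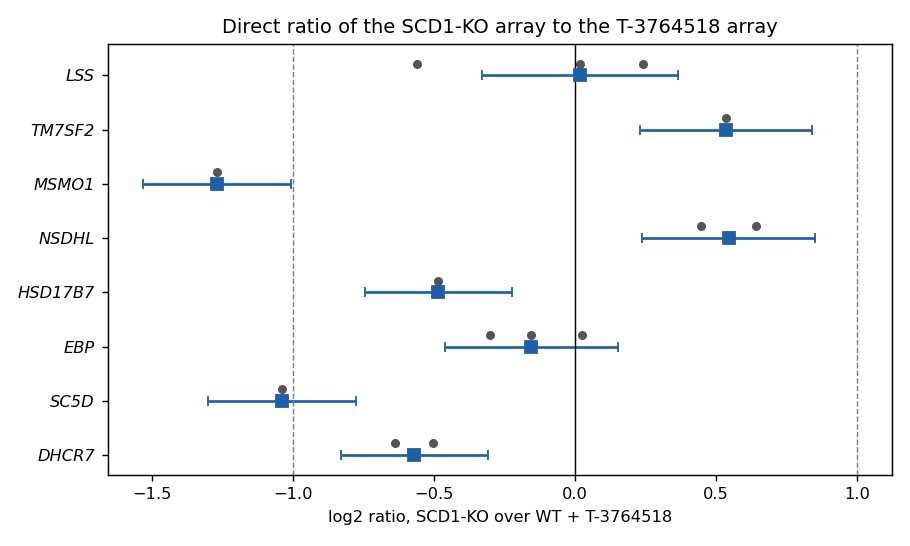
Log2 ratio of the SCD1-KO array to the T-3764518 array for each measured gene (squares, with bars of ± 1 SD among probe sets that share a gene and are of similar brightness) and for each kept probe set (points). Dashed lines are 2-fold. MSMO1 at -1.27 and SC5D at -1.04 lie to the left of the left line, and NSDHL and TM7SF2 lie to the right of 0.

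The upstream steps, from acetyl-CoA to squalene epoxide, were read from 8 of 10 listed genes, and the other 2 were not analysed here. Under T-3764518, 6 of the 8 were called higher and none lower, with a median log2 ratio of 1.51. In knockout cells 4 were called higher and none lower, with a median of 0.95. Of all genes, 2.18% were called higher and 3.30% lower under T-3764518, with a median of -0.087. The shares in knockout cells were 3.12% higher and 3.93% lower, with a median of -0.011. The corresponding values of the sterol steps were 5 and 2 called and medians of 1.15 and 0.77. With the mean over probe sets in place of the median, the upstream counts were 5 and 3, and those of the sterol steps stayed at 5 and 2. SQLE, the squalene epoxidase just before LSS, had a log2 ratio of 1.08 under T-3764518 and 0.094 in knockout cells. Like MSMO1 and SC5D, it was called under T-3764518 alone. Its 4 probe sets ran from 0.27 to 1.35 there and from -0.63 to 0.47 in knockout cells. FDPS, the farnesyl diphosphate synthase, had 1.58 and 1.04, and HMGCS1, which makes HMG-CoA, 2.78 and 1.94. Both were called in both states, as DHCR7 was. ACAT2, the thiolase of the first step, had 1.61 and 1.19, and MVD, the mevalonate diphosphate decarboxylase, 1.43 and 0.86. IDI1, the isomerase of the isoprene unit, had 2.08 and 1.33, from 2 bright probe sets at 2.08 and 2.10 under T-3764518 and a dimmer one in the opposite direction, whose signals were 324.9 with DMSO, 186.3 under T-3764518 and 162.6 in knockout cells. MVK, the mevalonate kinase, had 0.56 and 0.70. PMVK, the phosphomevalonate kinase, was the only gene of these steps below 0 in both, at -0.18 and -0.54. In the direct ratio all 8 upstream genes were below 0 and none was called, with SQLE farthest at -0.94. Of all genes, 4.52% were called higher and 3.10% lower in that ratio, and the median was 0.057.

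Several genes work beside the sterol steps. ERG28, a scaffold of the carbon-4 demethylation enzymes, had log2 ratios of 0.66 under T-3764518 and 0.14 in knockout cells, and LBR, a nuclear envelope protein with the same reductase activity as TM7SF2, -0.10 and -0.30. Of the electron donors of the oxidative steps, POR, the cytochrome P450 reductase, had 0.45 and 0.33, CYB5A, a cytochrome b5, -0.47 and -0.097, CYB5B, its mitochondrial form, -0.29 and -0.38, and CYB5R3, which reduces cytochrome b5, 0.041 and 0.47. None of these 6 genes was called. Of all genes, 2.18% were called higher and 3.30% lower under T-3764518, and 3.12% and 3.93% in knockout cells. Among sequence relatives, EBPL, which resembles EBP, had -0.31 and -0.46. HSD17B12, which shares a name with HSD17B7 but belongs to fatty acid elongation, was called higher in both, at 1.65 and 1.21, as were 1.09% of all genes. The HSD17B12 value rested on a bright probe set at 0.97 and 0.59 and a dim one at 2.33 and 1.82, so the bright one alone was under 2-fold. The dim one had signals of 24.6 with DMSO, 124 under T-3764518 and 86.9 in knockout cells. Its DMSO signal was below 56.6, and it passed the filter only through the arrays where it was high. Other probe sets of this gene were below the filter.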

How the data were processed

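Total RNA from 3 HCT-116 samples was labelled and hybridised to the Human Genome U133 Plus 2.0 Array, 1 array per condition. The intensity of each of the 54675 probe sets was deposited by the authors in linear units. The submitters' processing notes name MAS5, without a version. The mean signal without the top and bottom 2% of probe sets was 499.9 on every array, and the medians were 68.8, 56.7 and 62.4. The number of arrays limits the precision.

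Further steps were run in Python 3.11.15 (pandas 2.3.3, numpy 2.4.6, statsmodels 0.14.6, scipy 1.17.1), and plots were drawn in matplotlib 3.10.9. Gene symbols came from the platform annotation, in which 41097 carry 1 symbol and 1801 several, and the 8 measured genes matched RefSeq by gene ID under the same symbol. Control probe sets, 62 in number, were left out. The filter on mean log2 signal was set at percentile 50, and the call at log2 ratios of 1 and -1. The SD between probe sets was pooled in quintiles of signal. The samples were grouped by their treatment labels. No test was run, since each condition has 1 array. The calculation of the calls was run on simulated arrays with large changes put into bright genes. That checks the calculation, but not calls near 2-fold or differences between cultures. Motifs were searched on both strands of the RefSeq promoters. The members, lists and alternatives were chosen with earlier results of these data known. Genes named were the 9 members, the genes of the fixed lists that were called, with up to 4 others per list, those farthest from 0, and the 5 genes with the nearest pair of ratios. This rule does not cover the cell type markers, and those named were chosen after their values were seen.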

Additional observations from a re-analysis of the deposited data

Results flagged for a closer look

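TM7SF2 had ratios of opposite sign in the 2 states, with a log2 ratio of -0.12 under T-3764518 and 0.42 in knockout cells. The first is within the SD between probe sets of 0.29, and the difference between the states was not tested. FAXDC2, a relative of MSMO1, was likewise split, at 0.37 under T-3764518 and -0.017 in knockout cells, and this difference was not tested either.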

How the results depend on the processing

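The count of genes called higher under T-3764518, 5 of 8, became 1 at a threshold of 3-fold and 2 of 4 when probe sets with the suffix _s_at or _x_at were dropped. The count in knockout cells, 2 of 8, became 5 at 1.5-fold, 0 at 3-fold and 1 when every probe set had to be past 2-fold. Dropping the suffixed probe sets made it 0 of 4, and leaves no value for TM7SF2, HSD17B7, SC5D and DHCR7. The share of all genes called was computed only at 2-fold under the main settings. The counts at other settings therefore have no share of all genes beside them. Scaling the arrays to 1 median raised the median of all genes from -0.087 to 0.19 under T-3764518 and from -0.011 to 0.13 in knockout cells, and the median log2 ratio of the sterol steps under T-3764518 rose with it to 1.43. With the probe sets shared by CYP51A1 and LRRD1 counted for CYP51A1, an alternative chosen after seeing the data, the counts were 6 and 3 of 9. Of 228 single-gene values under the alternatives, 220 moved by less than the SD between probe sets. Some of these could not move. Raising signals to the filter level changed no gene of the sterol steps. Taking the brightest probe set or the mean changes no gene with 1 kept probe set. With no replicates, no array could be left out. No paired analysis was possible because each condition has 1 array.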

Other observations

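Outside the fixed lists, the genes whose pair of ratios lay nearest to the medians of the sterol steps, by Euclidean distance over the log2 ratios to DMSO under T-3764518 and in knockout cells, were SEC61B, CCSER2, CREM, FKBP14 and GTPBP2, at distances of 0.055 to 0.072. SEC61B, a subunit of the translocon of the endoplasmic reticulum, had log2 ratios of 1.15 and 0.72. FKBP14, a prolyl isomerase of the same compartment, had 1.20 and 0.72, with all 3 probe sets past 2-fold under T-3764518. CREM, a cAMP-responsive transcription factor, had 1.19 and 0.72 and probe sets from 0.30 to 1.26 under T-3764518. CCSER2 had 1.13 and 0.83, and GTPBP2, a GTP-binding protein, 1.17 and 0.70. The pattern rests on 3 arrays, and both ratios share the DMSO array.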
